A study of Homo sapiens with 8 samples.

Results

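The 38 genes described here act in homologous recombination and in the Fanconi anaemia pathway of crosslink repair. They were listed by name from their known function, with earlier results of these data known, and were found by symbol among the 60669 genes of the count tables. All 38 passed the filter on low counts, which left 17868 genes in all. Their levels were followed in HCT116, a human colon cancer cell line, in 4 groups of 2 RNA-seq libraries. The first group was WT cells without treatment and the second was WT cells given 0.5 µM doxorubicin for 24 h. The remaining groups were cells carrying the R350H change in DPF2, placed in the genome with CRISPR/Cas9, without and with the same doxorubicin treatment. DPF2 belongs to the BAF complex, which remodels chromatin, and the series' design text states that BAF complexes with this subunit bound nucleosomes acetylated at H3K56 poorly. Doxorubicin is a topoisomerase II poison that breaks DNA. The study asked how that interaction bears on gene expression when DNA is damaged. The labels name neither the number of edited clones nor the cultures behind each library. The p-values therefore reflect the spread among these libraries, which may be technical, and effects of the edit and of any other difference between the lines cannot be told apart.

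Homologous recombination repairs a broken chromosome from its sister. The broken ends are trimmed to single strands by the MRE11 complex and CtIP (encoded by RBBP8), BRCA1 with BARD1 and PALB2 brings in BRCA2, and further mediators and partners help the single strand invade its sister. The resulting joints are dissolved by the BLM complex or cut by nucleases such as GEN1 and MUS81 with EME1, and SLX4 is a nuclease scaffold. In the Fanconi pathway a core complex with the ubiquitin-conjugating enzyme UBE2T marks FANCD2 and FANCI at DNA crosslinks. Many genes of both pathways are transcribed mainly in S and G2 phase, and in bulk RNA fewer cells of a cycle stage and less RNA per cell cannot be told apart.

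Promoter sequence was read for the 36 members held in the RefSeq promoter table (GRCh38.p14), which covers 250 bases before to 50 bases after each start. Promoters of 4 genes are shown, for their changes in the main comparisons: PIF1, BRCA1 and RAD51AP1 changed most with doxorubicin in R350H cells, and RAD54L was the member furthest below WT in treated R350H cells. Each run holds the 120 bases before the start, 5′ to 3′ on the gene's own strand. Capitals mark a CCAAT box (CCAAT, or ATTGG where it lies on the other strand) or a CHR element (TTTGAA or TTCGAA), a sequence known from promoters of late cell cycle genes.
PIF1 (chr15:64825648-64825767, minus strand): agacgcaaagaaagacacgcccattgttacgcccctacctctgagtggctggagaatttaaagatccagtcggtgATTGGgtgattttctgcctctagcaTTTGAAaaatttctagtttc
BRCA1 (chr17:43125365-43125484, minus strand, the downstream of its starts): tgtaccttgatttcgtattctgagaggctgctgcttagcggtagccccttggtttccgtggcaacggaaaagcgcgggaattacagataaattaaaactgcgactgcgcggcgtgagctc
RAD51AP1 (chr12:4538770-4538889, plus strand): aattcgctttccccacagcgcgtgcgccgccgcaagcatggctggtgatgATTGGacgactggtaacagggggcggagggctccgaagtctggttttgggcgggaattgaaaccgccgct
RAD54L (chr1:46247568-46247687, plus strand, the upstream of its starts): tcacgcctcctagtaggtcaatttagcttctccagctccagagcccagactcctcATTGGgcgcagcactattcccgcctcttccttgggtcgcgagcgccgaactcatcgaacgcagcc
In the PIF1 promoter a CCAAT box and a CHR element stood close together just before the start, at positions -45 and -20 counted from it, while the BRCA1 stretch held neither. Over whole windows and both strands, a CHR element was present in 7 of the 36 promoters (19.4%) and in 19.5% of all 27305 genes of the table. CCAAT was present in 17 of 36 (47.2%) against 39.7% of all genes. An E2F site, searched as TTTCCCGC, TTTCGCGC, TTTGGCGC or TTTGCCGC, was present in 6 of 36 (16.7%) against 3.99% of all genes. Its carriers were FANCA, FANCC, FANCD2, GEN1, RMI1 and XRCC2. These matches describe the letters of the window only and were not tested.

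The libraries held 28111673 to 33727374 counts each. DPF2 itself read at 94.8 and 92.7 CPM (counts scaled to the TMM-adjusted library size) in untreated WT and at 106 and 108 CPM in treated WT. In R350H cells it read at 58.6 and 54.4 CPM untreated and at 54.3 and 53.5 CPM after doxorubicin, lower than in every WT library. Epithelial markers were present in all libraries, with EPCAM at 188 to 337 CPM. The differentiation markers KRT20 and VIL1 were low and rose with doxorubicin in both lines. KRT20 went from 0.12 to 0.34 CPM over the untreated libraries to 1.84 to 2.30 over the treated ones. VIL1 went from 0.03 to 0.06 CPM to 0.42 to 0.74, with only 1 or 2 reads in each untreated library. The part of these markers in the members' responses was not tested. CDX1 was at or near 0, as were the blood, fibroblast and endothelial markers other than COL1A1, PDGFRB and VWF. COL1A1 read at 33.3 to 88.7 CPM, while PDGFRB (0.48 to 0.96 CPM) and VWF (0.37 to 1.15 CPM) were low. The strand setting of the counting differed in untreated WT replicate 1 and untreated R350H replicate 2 from that of the remaining 6, as the file headers record.

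Per unit of transcript length, in TPM computed from the counts and the exon lengths, the members spanned a wide range of levels. In untreated WT cells the lowest was RAD51B at 2.15 ± 0.02 TPM (SD, n = 2), a mediator of strand invasion. The highest was UBE2T at 78.4 ± 0.06 TPM, and the median of the 38 was 12.7 TPM. FANCI at 39.2 ± 0.92 TPM, FANCL at 33.0 ± 1.67 TPM and FANCG at 30.0 ± 1.39 TPM followed, so Fanconi genes took the top of the order, and the ranges of FANCL and FANCG lay within about their summed SDs. BRCA1 stood at 22.1 ± 1.40 TPM and BRCA2, which encodes a much larger protein, at 5.78 ± 0.53 TPM. The median level was 13.2 TPM in treated WT, 12.9 TPM in untreated R350H and 8.90 TPM in treated R350H. Members at 10 TPM or more numbered 25, 21, 23 and 18 in the same order of groups, beginning with untreated WT. In treated WT 1 member lay under 1 TPM, PIF1 at 0.85 ± 0.05 TPM. The level of RAD50 is understated to an unknown degree, since 76.9% of its exon bases belong also to another gene model on its strand that was listed at 0 counts in all 8 libraries, and reads there had no single gene to go to.

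**Figure D1:**
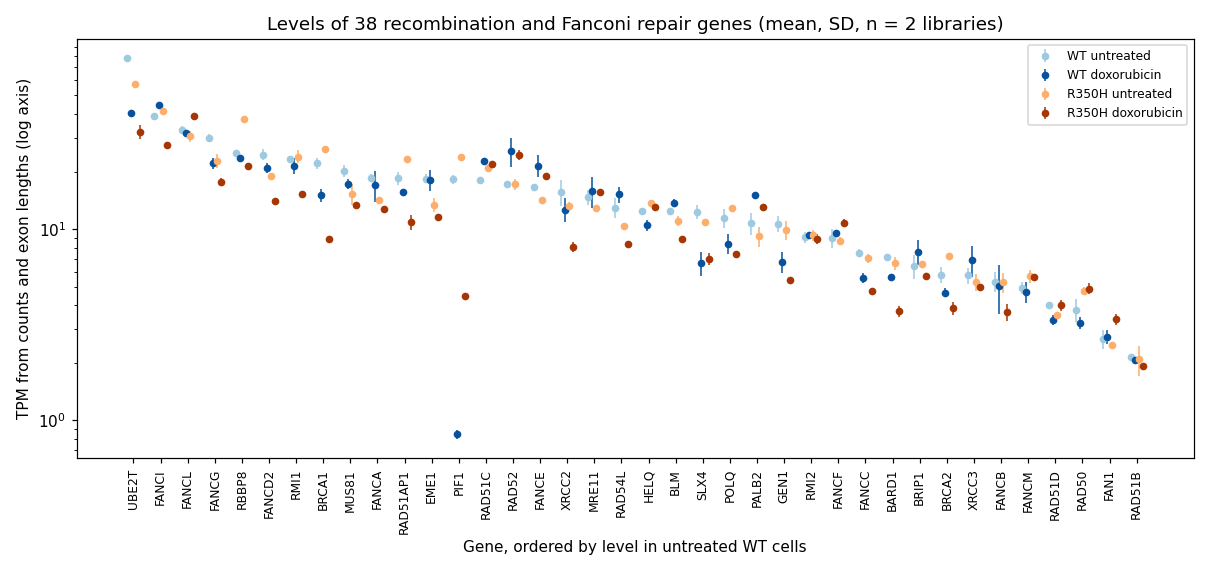
TPM of the 38 genes on a log axis, ordered by their level in untreated WT cells, as the mean (point) and SD (bar) of 2 libraries in each of the 4 groups. UBE2T is highest at 78.4 TPM in untreated WT, the order shifts between groups (BRCA1 ranks 8 in untreated WT and 20 in treated R350H), and PIF1 is last in treated WT at 0.85 TPM.

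In WT cells doxorubicin left the set as a whole near its starting level. It raised 10 of the 38 genes and lowered 8 (edgeR, Benjamini-Hochberg adjusted p under 0.05), a called share of 47.4% where 47.7% of all genes tested were called, 24.1% higher and 23.6% lower. The median log2 change of the members was 0.02 against -0.03 for all genes. The split between directions moved with the scaling, to 9 higher and 12 lower with upper quartile scaling. It also moved for the 23 members that share under 5% of their exon bases with another gene, a subset chosen after seeing the data. Of these, 5 rose (21.7%) and 8 fell (34.8%), with a median of -0.13. In R350H cells the same treatment lowered 19 genes and raised 7, where 21.8% of all genes were lower and 26.1% higher (47.9% in all). The members' median was -0.24 against 0.03, and 12 of the 19 fell by at least 1.5-fold. Among all genes, 1887 of the 3889 called lower, out of 17868 tested, fell by at least that much.

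The difference between the responses of the lines was then tested as an interaction. The response was lower in R350H cells for 14 of the 38 members (36.8%) and higher for 1, against 8.18% lower and 6.46% higher among all genes (14.6% in all). The median difference was -0.21 on the log2 scale for the members and 0.03 for all genes. The 14 were BRCA1, BRCA2, BARD1, BRIP1, RAD51C, RAD51AP1, XRCC2, RAD54L, RBBP8, BLM, RMI1, FANCD2, FANCI and POLQ, and the 1 in the other direction was PIF1. Of the 14, 8 kept the call whichever library was left out. BLM, FANCI and RAD54L rose in WT and fell in R350H. BARD1, BRCA2, FANCD2, RAD51AP1, RBBP8, RMI1 and XRCC2 fell in R350H and were not called in WT. BRCA1 and POLQ fell in both lines and by more in R350H. BRIP1 and RAD51C rose in WT and were not called in R350H.

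**Figure D2:**
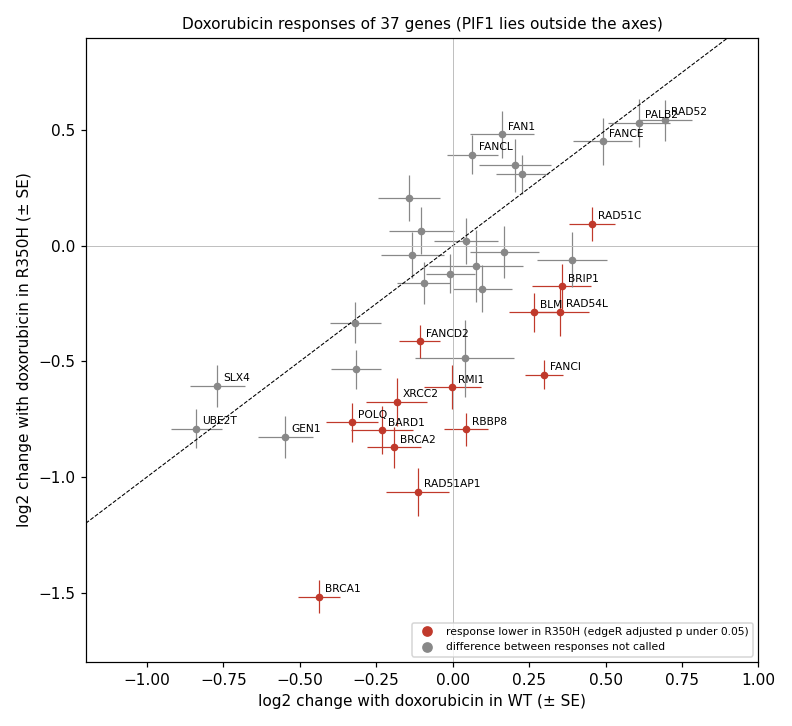
Log2 change with doxorubicin in WT cells (x axis) and in R350H cells (y axis) for 37 genes, with SE bars and the line of equal response dashed. The 14 genes in red lie below the line, from RAD51C at 0.46 and 0.09 to BRCA1 at -0.44 and -1.52, while PALB2, RAD52, SLX4 and UBE2T lie close to it. PIF1, at -4.30 and -2.38, is outside the axes.

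Among the BRCA complexes, 3 of 4 genes responded more negatively in R350H cells, where 8.18% of all genes did. BRCA1, the ubiquitin ligase and scaffold that starts the pathway, read at 70.7 and 66.5 CPM in untreated WT, 49.3 and 52.1 in treated WT, 78.8 and 77.2 in untreated R350H and 26.5 and 28.0 in treated R350H. The 4 groups did not overlap, and the treated R350H libraries were the lowest. BRCA1 fell by 0.44 ± 0.07 on the log2 scale in WT (1.35-fold, edgeR adjusted p = 7.37e-06) and by 1.52 ± 0.07 in R350H (2.86-fold, adjusted p = 5.58e-16), a difference of -1.08 ± 0.10 (adjusted p = 6.99e-09). BARD1, its ligase partner, read at 18.1 and 18.0 CPM in untreated WT, 15.8 and 15.02 in treated WT, 15.1 and 17.2 in untreated R350H and 9.66 and 8.89 in treated R350H. Untreated WT lay above and treated R350H below all other libraries. Its change was -0.23 ± 0.10 in WT (edgeR adjusted p = 0.0587) and -0.80 ± 0.10 in R350H (3.92e-07), and the difference of -0.57 ± 0.14 (0.00808) was lost without untreated R350H replicate 2 (adjusted p = 0.0795). BRCA2, the mediator that acts on the trimmed single strands, read at 25.9 and 23.4 CPM in untreated WT, 21.4 and 21.8 in treated WT, 29.4 and 30.0 in untreated R350H and 17.1 and 15.4 in treated R350H. It was highest in untreated and lowest in treated R350H, with no overlap between groups. BRCA2 fell by 0.87 ± 0.09 in R350H (edgeR adjusted p = 4.3e-09), with a difference of -0.68 ± 0.13 between responses (0.000325). PALB2, the bridge between BRCA1 and BRCA2, went the other way in both lines, from 18.3 and 15.6 to 27.2 and 24.6 CPM in WT and from 12.7 and 15.3 to 20.8 and 19.7 CPM in R350H. Its treated libraries lay above all untreated ones of either line. PALB2 rose by 0.61 ± 0.10 in WT (edgeR adjusted p = 1.54e-05) and by 0.53 ± 0.10 in R350H (0.00011), and the responses differed by -0.08 ± 0.14 (0.792).

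Of the 8 genes of strand-invasion mediators and partners, 4 rose in WT and 0 fell (0 also at an unadjusted p under 0.05 and by DESeq2). Among all genes 24.1% rose and 23.6% fell there. In R350H 1 of the 8 rose and 3 fell, against 26.1% and 21.8% of all genes. The response was lower in R350H for 4 of the 8, against 8.18% of all genes. RAD54L, a DNA translocase of the strand-invasion step whose promoter is printed above, read at 18.8 and 16.3 CPM in untreated WT and 21.6 and 23.3 in treated WT. In R350H it read at 13.7 and 13.6 CPM untreated and 11.2 and 11.2 treated. The groups did not overlap, and treatment separated the lines further. Its response differed by -0.64 ± 0.14 (edgeR adjusted p = 0.00229), made of 0.35 ± 0.10 in WT and -0.29 ± 0.10 in R350H. The WT rise was lost without untreated WT replicate 2 (adjusted p = 0.0578), and the R350H fall was lost without any 1 of the 4 R350H libraries (0.0733 to 0.0964).

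RAD51AP1, a partner in strand invasion, read at 16.4 and 15.04 CPM in untreated WT, 15.2 and 13.9 in treated WT, 18.9 and 19.6 in untreated R350H and 8.58 and 9.79 in treated R350H. Both WT groups overlapped, while R350H cells went from the highest to the lowest values. RAD51AP1 changed by -0.11 ± 0.10 in WT (edgeR adjusted p = 0.38) and by -1.07 ± 0.10 in R350H (2.31e-09), a difference of -0.95 ± 0.15 (3.62e-05). RAD51C, a subunit of both mediator complexes, read at 35.1 and 38.1 CPM in untreated WT, 51.8 and 48.5 in treated WT, 40.8 and 40.9 in untreated R350H and 42.8 and 44.4 in treated R350H. Treated WT lay above all other libraries. Its rise of 0.46 ± 0.07 was clear of the spread in WT (edgeR adjusted p = 1.11e-05), against 0.09 ± 0.07 in R350H. The difference of -0.36 ± 0.10 (0.0185) was lost when any 1 of 5 libraries was left out (0.0574 to 0.0728). XRCC2, another mediator subunit, read at 27.5 and 22.8 CPM in untreated WT, 20.6 and 23.7 in treated WT, 21.1 and 19.8 in untreated R350H and 12.2 and 13.4 in treated R350H. Only treated R350H lay apart from the other libraries. Its difference of -0.49 ± 0.14 (edgeR adjusted p = 0.0205) was lost without untreated WT replicate 2 (0.0879), untreated R350H replicate 1 (0.108) or treated R350H replicate 1 (0.062).

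XRCC3, the complex partner of RAD51C, read at 13.2 and 15.5 CPM in untreated WT, 16.8 and 20.6 in treated WT, 11.8 and 13.7 in untreated R350H and 11.9 and 12.6 in treated R350H. Treated WT was highest, and the R350H groups overlapped. Its WT rise of 0.39 ± 0.11 (edgeR adjusted p = 0.00586) was lost without untreated WT replicate 1 (0.109) or treated WT replicate 2 (0.0781), and the difference between responses was -0.45 ± 0.16 (0.0638). The exons of XRCC3 lie for 76.7% under those of KLC1 on the other strand, so its counts depend on the strand setting. RAD52, which anneals single strands, read at 25.2 and 26.3 CPM in untreated WT, 37.8 and 45.5 in treated WT, 25.9 and 23.9 in untreated R350H and 34.7 and 37.8 in treated R350H. Treated libraries of either line lay above all untreated ones. RAD52 rose by 0.70 ± 0.09 in WT (edgeR adjusted p = 2.68e-07) and by 0.54 ± 0.09 in R350H (1.06e-05), and the responses differed by -0.15 (0.475). RAD51B and RAD51D were called in none of the comparisons. The interval (95%) of their difference between responses ran from -0.61 to 0.28 for RAD51B and from 0.06 to 0.64 for RAD51D (adjusted p = 0.105 over all genes), so changes of these sizes remain possible.

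In end resection, 1 of 3 genes, RBBP8, passed the test of a difference between responses, where 14.6% of all genes did. RBBP8, whose product CtIP starts the trimming, read at 42.0 and 42.6 CPM in untreated WT, 45.3 and 41.9 in treated WT, 60.3 and 63.3 in untreated R350H and 35.7 and 35.6 in treated R350H. WT libraries overlapped, whereas R350H cells were above WT before treatment and below it after. RBBP8 changed by 0.04 ± 0.07 in WT (edgeR adjusted p = 0.647) and by -0.79 ± 0.07 in R350H (4.25e-10), a difference of -0.84 ± 0.10 (9.42e-07). MRE11, the nuclease, rose by 0.23 ± 0.08 in WT (edgeR adjusted p = 0.0307) and 0.31 ± 0.09 in R350H (0.00382). The WT call was lost without untreated WT replicate 2 (0.196) or treated WT replicate 2 (0.319). RAD50, the ATPase of that complex, was not called for doxorubicin in either line.

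Of the BLM complex, 2 of 3 genes responded more negatively in R350H, where 8.18% of all genes did. BLM, the helicase that dissolves double joints, read at 27.9 and 27.1 CPM in untreated WT, 32.8 and 33.3 in treated WT, 24.6 and 22.8 in untreated R350H and 19.2 and 19.6 in treated R350H. The groups did not overlap, and treatment moved the lines in opposite directions. The change was 0.27 ± 0.08 in WT (edgeR adjusted p = 0.0082) and -0.29 ± 0.08 in R350H (0.00568), a difference of -0.55 ± 0.12 (0.0014), and the R350H call was lost without untreated R350H replicate 1 (0.0825). RMI1, a stabilising subunit, read at 27.3 and 27.3 CPM in untreated WT, 30.0 and 24.7 in treated WT, 25.3 and 28.7 in untreated R350H and 17.4 and 18.0 in treated R350H. Its treated R350H libraries were below all others. RMI1 changed by -0.61 ± 0.10 in R350H (edgeR adjusted p = 5.38e-06) with a difference of -0.61 ± 0.13 (0.00198), which became 0.0567 without the pair of libraries counted at the other strand setting. RMI2, the third subunit, was called in no comparison, with a 95% interval of -0.53 to 0.13 for the difference.

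Of the 5 genes of nucleases and their partners, 0 passed the edgeR test of a difference between responses, where 14.6% of all genes did. For so few genes 0 is near that share. At an unadjusted p under 0.05 the response was lower in R350H for GEN1 and higher for FAN1, and DESeq2 called 0 (11.8% of all genes). SLX4, the scaffold, read at 36.8 and 33.6 CPM in untreated WT, 19.2 and 22.1 in treated WT, 29.2 and 31.1 in untreated R350H and 18.8 and 20.9 in treated R350H. SLX4 fell by 0.77 ± 0.09 in WT (edgeR adjusted p = 6.26e-08) and by 0.61 ± 0.09 in R350H (2.8e-06). GEN1, a joint resolvase, went from 44.3 and 39.9 to 27.1 and 30.5 CPM in WT and from 34.3 and 40.9 to 21.6 and 20.8 CPM in R350H. Treated libraries of both genes lay below all untreated ones. GEN1 fell by 0.55 ± 0.09 in WT (edgeR adjusted p = 1.2e-05) and by 0.83 ± 0.09 in R350H (2.08e-08). EME1, the partner of MUS81, differed by line instead: it read at 20.6 and 19.7 CPM in untreated WT and 20.3 and 22.8 in treated WT, against 13.3 and 15.1 in untreated R350H and 12.7 and 12.3 in treated R350H. All R350H libraries lay below all WT libraries. FAN1, a crosslink nuclease, rose in R350H (0.48 ± 0.10, edgeR adjusted p = 0.000324) and was not called in WT, and its responses did not pass the test of a difference (0.152).

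Of the 8 Fanconi core genes, 0 passed the edgeR test of a difference between responses, where 14.6% of all genes did. For so few genes 0 is near that share. The median difference over the group was -0.03. At an unadjusted p under 0.05 the response was lower in R350H for FANCB and higher for FANCL, and DESeq2 called 0 (11.8% of all genes). FANCE, the subunit that contacts FANCD2, rose in both lines, by 0.49 ± 0.10 in WT (edgeR adjusted p = 0.000151) and 0.45 ± 0.10 in R350H (0.000462). FANCC and FANCG fell in both, FANCC by 0.32 ± 0.08 and 0.53 ± 0.08 and FANCG by 0.32 ± 0.08 and 0.33 ± 0.09, and the R350H call of FANCG was lost without untreated R350H replicate 1 (adjusted p = 0.0642). FANCL, the ubiquitin ligase subunit, rose in R350H by 0.39 ± 0.08 (edgeR adjusted p = 0.000325), as did FANCF by 0.35 ± 0.12 (0.0152). The FANCF call was lost without untreated R350H replicate 1 (0.131), treated R350H replicate 1 (0.0507) or treated R350H replicate 2 (0.176). FANCB, an adaptor of the core, was among the lowest by counts, at 6.80 and 5.93 CPM in untreated WT, 5.41 and 7.68 in treated WT, 5.54 and 6.68 in untreated R350H and 4.66 and 4.06 in treated R350H. The treated R350H libraries were below all others, which overlapped. Its fall of 0.49 ± 0.17 in R350H (edgeR adjusted p = 0.0182) was lost without untreated R350H replicate 2 (0.225) or treated R350H replicate 2 (0.105). FANCA, the scaffold, and FANCM, a translocase, were not called for doxorubicin in either line.

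Of the 3 genes that act downstream of or with the core, FANCI and FANCD2 responded more negatively in R350H, where 8.18% of all genes did. FANCI, which is ubiquitinated together with FANCD2, read at 102 and 101 CPM in untreated WT, 127 and 124 in treated WT, 104 and 103 in untreated R350H and 71.1 and 69.2 in treated R350H. The untreated lines were within 3 CPM of each other, and treatment took them apart in opposite directions. FANCI rose by 0.30 ± 0.06 in WT (edgeR adjusted p = 0.000228) and fell by 0.56 ± 0.06 in R350H (2.73e-08), a difference of -0.86 ± 0.09 (5.41e-08). FANCD2 read at 70.5 and 66.2 CPM in untreated WT, 62.6 and 64.3 in treated WT, 51.7 and 50.7 in untreated R350H and 37.2 and 39.7 in treated R350H. R350H libraries were below WT in both conditions. Its difference of -0.31 ± 0.10 (edgeR adjusted p = 0.0345) was the smallest of the 14, and it was lost without untreated WT replicate 2 (0.0784), untreated R350H replicate 1 (0.121) or 2 (0.0914), or treated R350H replicate 1 (0.14). UBE2T, the conjugating enzyme, fell in both lines, from 42.6 and 43.8 to 25 and 23.3 CPM in WT and from 31.1 and 29.6 to 16.5 and 18.7 CPM in R350H. UBE2T fell by 0.84 ± 0.08 (edgeR adjusted p = 2.96e-09) and 0.79 ± 0.09 (1.48e-08), with a difference between responses of 0.05.

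PIF1, a helicase that acts at replication forks, telomeres and G-quadruplexes, gave the largest change of any member in every comparison but that of the untreated lines. It was counted at 890 and 815 reads in untreated WT, 40 and 44 in treated WT, 1133 and 1150 in untreated R350H and 229 and 214 in treated R350H. In CPM these were 26.7 and 29.8, 1.41 and 1.44, 35.5 and 35.6, and 7.02 and 6.63. Doxorubicin brought it down in both lines, further in WT, and no groups overlapped. PIF1 fell by 4.30 ± 0.13 in WT (19.7-fold, edgeR adjusted p = 9.09e-20) and by 2.38 ± 0.10 in R350H (5.2-fold, 4.25e-17). The responses differed by 1.92 ± 0.18 (edgeR adjusted p = 1.14e-08).

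POLQ, the polymerase of microhomology-mediated end joining, read at 38.3 and 33.3 CPM in untreated WT, 27.0 and 30.0 in treated WT, 38.01 and 39.6 in untreated R350H and 22.6 and 23.1 in treated R350H. Treated libraries were below all untreated ones. It fell in both lines, by 0.33 ± 0.08 in WT (edgeR adjusted p = 0.00205) and 0.76 ± 0.08 in R350H (2.14e-08). The WT call was lost without untreated WT replicate 1 (0.0548), and the difference of -0.43 ± 0.12 (0.0138) was lost without untreated WT replicate 2 (0.0521) or untreated R350H replicate 2 (0.0775). BRIP1, the helicase bound to BRCA1, read at 23.6 and 19.8 CPM in untreated WT, 25.7 and 29.9 in treated WT, 21.9 and 20.9 in untreated R350H and 18.3 and 19.6 in treated R350H. The treated lines did not overlap, while the untreated ones did. BRIP1 rose by 0.36 ± 0.10 in WT (edgeR adjusted p = 0.00318), a call lost without untreated WT replicate 2 (0.0652), and changed by -0.17 ± 0.10 in R350H (0.148). The difference of -0.53 ± 0.14 (0.00863) was lost without untreated R350H replicate 1 (0.0556). HELQ, another helicase, was called in no comparison, with a 95% interval of -0.20 to 0.38 for the difference.

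**Figure D3:**
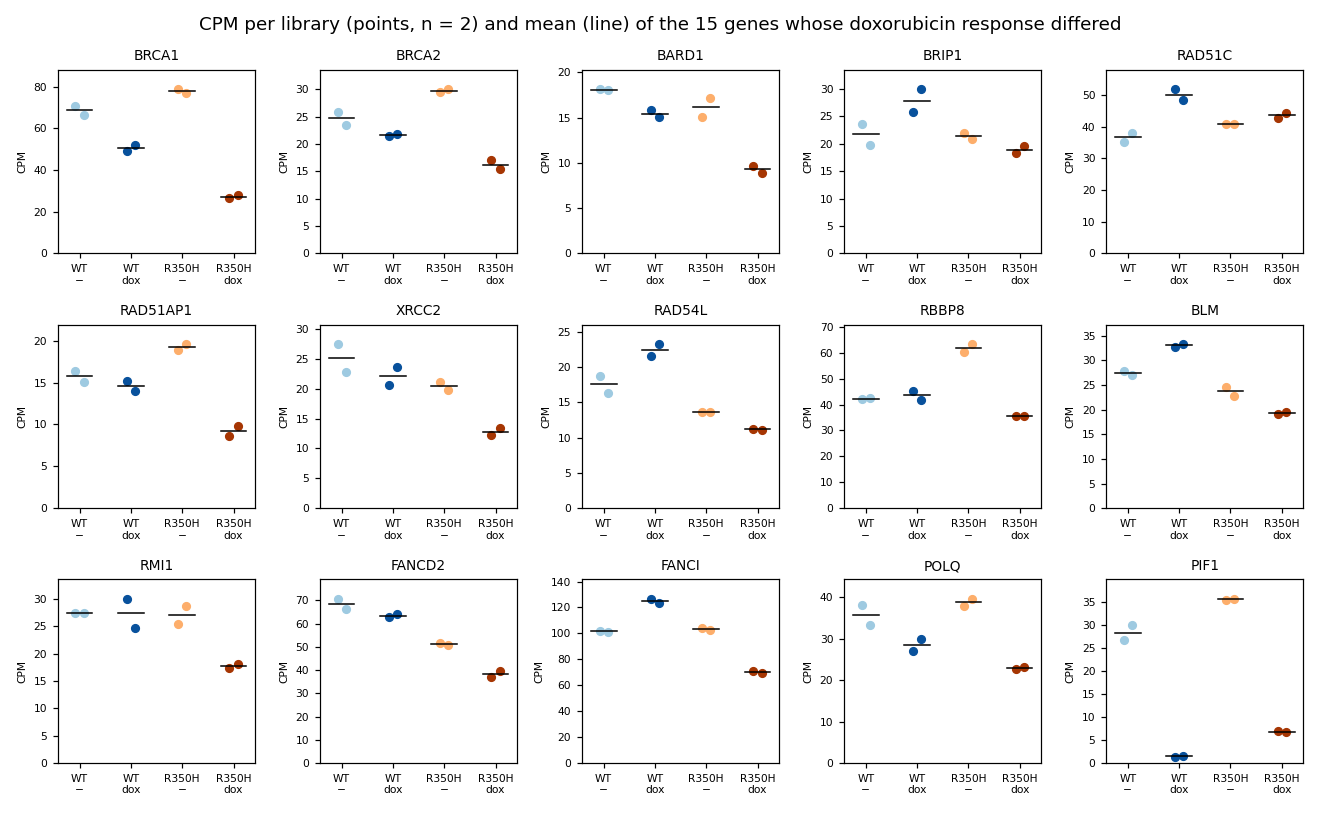
CPM in each of the 8 libraries (points) with the group mean (line, n = 2) for the 15 genes that passed the test of a difference between responses, each panel from 0. BRCA1, RAD51AP1 and RBBP8 start higher in untreated R350H than in WT and end lower after doxorubicin, FANCI starts level at 101 to 104 CPM and parts, and PIF1 ends lower in treated WT (1.41 and 1.44 CPM) than in treated R350H (7.02 and 6.63 CPM).

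Without treatment, the lines differed in 19 of the 38 genes. In R350H 13 were lower and 6 higher, where 19.5% of all genes were lower and 17.3% higher (36.8% in all), and the members' median was -0.15 against -0.01. Upper quartile scaling gave 7 higher and 9 lower, where 37.2% of all genes were called. DESeq2 called 11 of the 38 members, 4 higher and 7 lower, against 30.4% of all genes. The members' larger called share was therefore not kept with DESeq2. The higher genes were BRCA1, BRCA2, RAD51AP1, RBBP8, RAD50 and PIF1, and of these RBBP8 alone, at 0.55 ± 0.07 (edgeR adjusted p = 5.99e-07), kept its call whichever library was left out. The lower genes that kept theirs were EME1, MUS81, FANCA, FANCG, FANCD2 and UBE2T, at -0.42 to -0.51. The other 12 calls rested on at least 1 library each, and leaving out 1 library gave 9 to 19 called members. The count fell to 9 without untreated R350H replicate 1, 11 without untreated R350H replicate 2 and 12 without untreated WT replicate 1. Without the pair of untreated libraries counted at the other strand setting it was 8. MUS81 lies 503 kb from DPF2 on chromosome 11.

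After doxorubicin, R350H cells had less of 25 of the 38 genes and more of 2, where 21.0% of all genes were lower and 19.1% higher (40.1% in all). The members' median was -0.39 against 0.02. This comparison uses the same treated libraries as the responses above, so it is another view of them. The lower genes included all 4 of the BRCA complexes, 5 of 8 strand-invasion mediators and partners, 5 of 8 core genes and all of FANCD2, FANCI and UBE2T. The largest of these differences were RAD54L at -1.0 ± 0.10 (edgeR adjusted p = 4.26e-09), BRCA1 at -0.90 ± 0.07 (9.19e-11), FANCI at -0.83 ± 0.06 (1.96e-11), EME1 at -0.79 ± 0.10 (3.05e-07) and XRCC2 at -0.79 ± 0.10 (6.64e-07). PIF1 was higher by 2.25 ± 0.15 (4.76-fold, edgeR adjusted p = 3.3e-12) and RAD50 by 0.45 ± 0.10 (0.00108), the latter lost without treated R350H replicate 1 (0.0591). The lower calls lost with 1 library were PALB2 without treated WT replicate 1 (0.0588), RAD51C without treated WT replicate 1 (0.161) or treated R350H replicate 1 (0.12), and FANCB without treated WT replicate 2 (0.12). In both conditions 11 genes were lower in R350H, 10 passed the test as lower after doxorubicin and not before it, and 4 went from higher to lower, namely BRCA1, BRCA2, RAD51AP1 and RBBP8.

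**Figure D4:**
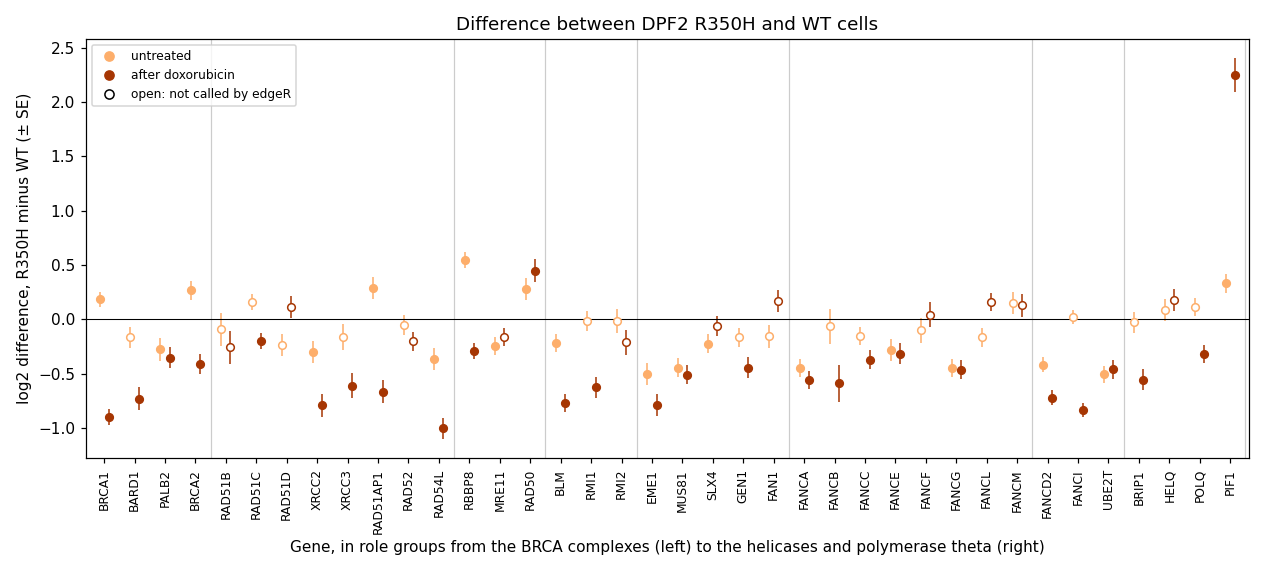
Log2 difference between R350H and WT cells (± SE) for the 38 genes in role groups, untreated and after doxorubicin, with open points where edgeR did not call it. After doxorubicin 25 filled points lie below 0 and 2 above, RAD50 at 0.45 and PIF1 at 2.25, while the untreated points lie on both sides, from -0.51 for UBE2T to 0.55 for RBBP8.

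Of 46 further genes of the same pathways, listed by function, 45 were tested, and DMC1, the meiotic recombinase, did not pass the filter. In WT 12 of the 45 rose with doxorubicin (26.7%, against 24.1% of all genes) and 9 fell (20.0% against 23.6%), shares near those of all genes. In R350H 9 rose (20.0% against 26.1%) and 19 fell (42.2% against 21.8%). The response was lower in R350H for 13 (28.9% against 8.18%) and higher for 1 (2.22% against 6.46%), with a median of -0.17. USP1, which removes ubiquitin from FANCD2, read at 68.9 and 66.4 CPM in untreated WT, 58.5 and 52.8 in treated WT, 87.2 and 91.0 in untreated R350H and 29.2 and 32.5 in treated R350H. Its order of groups was that of BRCA1, and the responses differed by -1.25 ± 0.10 (edgeR adjusted p = 9.21e-10). EXO1, the long-range resection nuclease, differed by -1.14 ± 0.12 (edgeR adjusted p = 1.49e-07) and FIGNL1, an ATPase of the pathway, by -1.11 ± 0.12 (1.09e-07). ERCC1, ZGRF1, RPA1, SWI5 and HROB followed at -0.35 to -0.70.

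Cell cycle genes moved beside the members. Of 25 S phase genes, 17 rose and 1 fell with doxorubicin in WT, where 24.1% of all genes were higher and 23.6% lower. In R350H 6 rose and 14 fell, where 26.1% of all genes were higher and 21.8% lower. The medians were 0.33 and -0.22, against -0.03 and 0.03 for all genes. The response was lower in R350H for 15 and higher for 0 (0 also at an unadjusted p under 0.05 and by DESeq2). Among all genes 8.18% responded lower and 6.46% higher in R350H. All 25 mitosis genes fell in both lines, with medians of -1.65 in WT and -1.72 in R350H, and their response was lower in R350H for 5 and higher for 10. Whether the share of cells in S phase took part in the members' differences was not tested.

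BRCA1 was the 1 member among the 202 genes of the TPM table that the authors deposited. That table gave 5.54 and 5.35 TPM in untreated WT, 2.34 and 2.92 in treated WT, 7.42 and 6.95 in untreated R350H and 2.28 and 2.22 in treated R350H. The order of the untreated groups was that of the counts, while the treated lines lay closer together than in the counts. On log2(TPM + 1), which understates the change of low genes, limma gave -0.83 ± 0.08 in WT (adjusted p = 3.42e-05), -1.33 ± 0.08 in R350H (1.55e-06) and a difference of -0.50 ± 0.11 between responses (0.00339). The WT fall was larger than in the counts, where it was -0.44. The treated lines differed by -0.16 ± 0.08 (limma adjusted p = 0.103), against -0.90 ± 0.07 in the counts. With a pseudocount of 0.1 the treated lines differed by -0.21 (limma adjusted p = 0.1). The sources used here do not give how those TPM values were made, and the cause of that gap was not tested.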

How the data were processed

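RNA was extracted with TRIzol and made into stranded TruSeq mRNA libraries, per the labels' protocols. The authors deposited whole-number counts per gene, made per the file headers with featureCounts 2.0.1 at a minimum mapping quality of 10 on GENCODE release 34. The headers give strand setting 1 in 2 untreated libraries (WT replicate 1, R350H replicate 2) and 2 in the others. The submitters' processing notes name hg38 and, as tools, DESeq2 1.36.0, STAR 2.7.5a, featureCounts 1.5.0-p1, FastQC 0.11.4 and Trim Galore 0.6.10. A table of TPM values for 202 genes was deposited too, and how it was made is not given in the sources at hand.

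The members and gene lists were chosen with earlier results of these data known. Counts were filtered with filterByExpr, TMM-scaled and fitted in edgeR 4.0.16 (R 4.3.3) with its robust quasi-likelihood test (two-sided, 1 mean per group over the 8 libraries, residual degrees of freedom 4, Benjamini-Hochberg over 17868 genes, adjusted p under 0.05) in 5 contrasts. Changes are log2 ± SE. Exon lengths gave the TPM used for levels. On the deposited TPM values limma 3.58.1 was run with a pseudocount of 1, and of 0.1 as an alternative. Values in every library are given for the 23 members past the difference test or changed at least 1.5-fold past the test in any contrast, and for up to 8 other pathway genes with the smallest adjusted p in the difference, of which USP1 is given in full. The result of a further gene is not reported here. The fit was tested on simulated counts with 66 or 67 genes changed at each fold, far fewer than were called in the data. For the difference between responses it recovered 47.8% of 1.5-fold and 83.3% of 4-fold changes. Of its 146 calls there, 14 were unchanged genes. In the other contrasts 64.2% to 77.6% of 1.5-fold changes were recovered. Libraries of a group correlated at 0.992 to 0.995 and differed by more than sampling noise (chi-square per gene 1.93 to 7.85). Alternatives were DESeq2 1.42.0, other scalings and filters, a 1.5-fold test, the replicate block and libraries left out, where a lone library is assumed to vary like the other groups. Figures used matplotlib 3.10.9.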

Additional observations from a re-analysis of the deposited data

Results flagged for a closer look

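For 15 genes the test of the difference between the doxorubicin responses of R350H and WT cells passed (edgeR, adjusted p under 0.05). The log2 difference, R350H minus WT, was -1.08 for BRCA1, -0.68 for BRCA2, -0.57 for BARD1, -0.53 for BRIP1, -0.36 for RAD51C, -0.95 for RAD51AP1, -0.49 for XRCC2 and -0.64 for RAD54L. It was -0.84 for RBBP8, -0.55 for BLM, -0.61 for RMI1, -0.31 for FANCD2, -0.86 for FANCI, -0.43 for POLQ and 1.92 for PIF1. BLM, FANCI and RAD54L changed in opposite directions in the lines, each past the test in both.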

How the results depend on the processing

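The members called numbered 18 for doxorubicin in WT, 26 in R350H, 19 between untreated lines, 27 between treated lines and 15 for the difference between responses. Tested against a 1.5-fold change the counts were 2, 7, 0, 4 and 3 of 38. Among all genes that test called 10.0%, 10.2%, 5.03%, 6.87% and 1.27% in the same order. At that setting the untreated count of 0 (0 also at an unadjusted p under 0.05) stands beside 19 with the plain edgeR test and 11 with DESeq2. Between untreated lines the plain test called 36.8% of all genes and DESeq2 30.4%. Without the pair of libraries at strand setting 1 the untreated count was 8. Leaving out 1 library gave 16 to 18, 22 to 26, 9 to 19, 25 to 28 and 11 to 16, and the low untreated counts came from leaving out untreated libraries. With replicate number as a block the counts were 18, 26, 19, 27 and 16, and neither the labels nor 2 pairs can show that the numbers pair the libraries (correlation of deviations -0.15 to 0.20 over the pairs of groups). With the strand setting as a term, chosen after seeing the data, the counts were 19, 25, 19, 27 and 15. This term splits only the untreated libraries, since all treated ones were counted at the same setting. For the 23 members that share under 5% of their exon bases with another gene, also chosen after seeing the data, they were 13, 19, 13, 19 and 12. The 115 single-gene values of the members given in full were each set beside the alternatives. None reversed, 1634 comparisons kept their call or lack of one, 162 lost and 21 gained a call. The 1.5-fold test gave 66 of the losses. Depth limits the low genes: the SE of the difference between responses was 0.22 for RAD51B and 0.23 for FANCB, against 0.09 for FANCI.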
